A study of Mus musculus with 15 samples.

Results

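Pericytes of the brain are recognised by a small group of transcripts, and 10 of these were followed here: Kcnj8, Abcc9, Rgs5, Higd1b, Cspg4, Mcam, Vtn, Atp13a5, Ndufa4l2 and Cox4i2. They were taken by gene symbol, through the Entrez gene identifier of each line, from the 17892 genes with values, and all 10 had values in all 15 libraries and passed the filter on low counts. RNA had been sequenced in bulk from PDGFRβ-positive cells of mouse brain. The groups were 4 libraries of miR-210 knockout (KO) mice after neonatal hypoxia-ischemia (HI), 4 of wild-type (WT) mice after HI, 4 of KO mice after sham treatment and 3 of WT mice after sham treatment. HI, a loss of oxygen and blood flow in the newborn brain, was given 24 hours before the cells were taken. The labels name neither strain nor age in days, or whether each replicate is a different animal, so p-values measure only the spread between these samples, which may be technical.

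Pericytes sit in the basement membrane around capillaries, share that membrane with the endothelium, and adjust capillary tone and the blood-brain barrier. PDGFRβ is the receptor through which they are recruited to vessels and it is also found on the smooth muscle of larger vessels and on fibroblasts. The 10 genes fall into groups by role. Kcnj8 (Gene ID 16523) encodes the pore, and Abcc9 (20928) the sulfonylurea receptor, of the ATP-sensitive potassium channel of mural cells, which opens when ATP falls and lowers contractile tone. Rgs5 (19737) encodes a regulator that shuts off G-protein signals. Cspg4 (121021) encodes the NG2 proteoglycan, Mcam (84004) the adhesion receptor CD146 and Vtn (22370) vitronectin, a secreted ligand of integrins. Atp13a5 (268878) encodes a P5-type transport ATPase. Higd1b (75689), Ndufa4l2 (407790) and Cox4i2 (84682) encode mitochondrial proteins: Ndufa4l2 is a target of the hypoxia-inducible factors that restrains respiration, and Cox4i2 is the isoform of a cytochrome c oxidase subunit favoured at low oxygen.

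MiR-210 is a microRNA induced by low oxygen through the hypoxia-inducible factors, and it represses transcripts that carry a match to its seed. Its main mature form is shown with the seed, bases 2 to 8, in capitals (RefSeq, GRCm38.p6, chr7:141221407-141221428, minus strand).
mmu-miR-210-3p: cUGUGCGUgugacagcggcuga
The complementary 7 letters, ACGCACA, stood in the annotated 3′ UTR of 0 of the 10 genes and in 570 of 14496 tested genes with an annotated UTR, or 3.93%. No value of the Mir210 gene itself was analysed here, so the loss of the microRNA in KO mice was not checked.

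Promoter sequences, from 250 bases before to 50 bases after the start, were found in RefSeq (GRCm38.p6) for 7 genes: Kcnj8, Abcc9, Rgs5, Mcam, Cspg4, Vtn and Atp13a5. Short motifs were searched on both strands, with no overlap between them. They were ACGTG, the core bound by hypoxia-inducible factors, TGGGAA, the core bound by the Notch effector RBPJ, and TGTTTAC, a core bound by forkhead factors. Of 32851 promoters of the same length, 19.6% held ACGTG, 25.6% held TGGGAA and 3.65% held TGTTTAC. Among the 7, the RBPJ core stood in 3, once in Kcnj8, once in Abcc9 and 3 times in Vtn, and the other motifs were in none of these windows. The promoters of the channel pair, neighbouring genes on chromosome 6 of the mouse, are printed with TGGGAA in capitals, followed by that of Rgs5, the gene whose levels ran least with the rest.
Kcnj8, chr6:142571565-142571864, minus strand: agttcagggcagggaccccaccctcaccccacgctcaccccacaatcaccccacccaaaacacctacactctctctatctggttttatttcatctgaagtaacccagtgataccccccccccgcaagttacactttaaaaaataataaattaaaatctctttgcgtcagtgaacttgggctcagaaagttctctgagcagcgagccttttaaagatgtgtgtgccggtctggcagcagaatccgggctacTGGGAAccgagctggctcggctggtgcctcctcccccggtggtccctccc
Abcc9, chr6:142702225-142702524, minus strand: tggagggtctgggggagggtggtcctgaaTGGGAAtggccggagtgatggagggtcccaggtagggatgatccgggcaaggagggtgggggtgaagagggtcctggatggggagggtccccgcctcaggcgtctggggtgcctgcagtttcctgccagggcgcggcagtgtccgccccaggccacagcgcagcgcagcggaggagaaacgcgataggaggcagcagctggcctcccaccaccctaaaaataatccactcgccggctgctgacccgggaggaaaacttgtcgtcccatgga
Rgs5, chr1:169655251-169655550, plus strand: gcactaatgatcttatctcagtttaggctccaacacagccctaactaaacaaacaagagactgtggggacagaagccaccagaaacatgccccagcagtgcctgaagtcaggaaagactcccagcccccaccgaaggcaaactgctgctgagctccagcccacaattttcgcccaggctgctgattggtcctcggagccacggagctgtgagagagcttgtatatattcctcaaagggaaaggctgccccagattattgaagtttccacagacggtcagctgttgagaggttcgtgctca
A match describes letters only and does not show binding.

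Libraries held between 15436376 and 18118697 expected counts, the estimated reads per gene, and the smallest value behind any of the 10 genes was 61 counts (Cox4i2 in a KO HI library). Levels are given as CPM, reads scaled to each library's normalized total, and, between genes, as CPM per kb of merged exon. The 10 genes were well expressed. Per kb in WT sham libraries, Rgs5 ranked 11, Vtn 22 and Mcam 189 of 14618 genes, and Pdgfrb ranked 300. The lowest of the 10 was Cox4i2 at rank 3077. Markers of other cells were present as well: summed over 14 endothelial markers, libraries held 3050 to 6031 CPM in KO HI, 9423 to 12228 in WT HI, 3512 to 10076 in KO sham and 9762 to 11285 in WT sham. Summed microglia markers (14) ran from 7087 to 15314 CPM in KO HI, 2151 to 5651 in WT HI, 3866 to 6790 in KO sham and 2870 to 4102 in WT sham. Neuron markers (13) were uneven, at 47.4 to 1304 CPM in KO HI, 53.0 to 55.7 in WT HI, 67.2 to 2114 in KO sham and 69.3 to 195 in WT sham. None of these lists had a marker at 0 in all libraries of a group.

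In WT sham mice the order of the 10 genes per kb was led by Rgs5 at 1180 ± 180.2 CPM per kb (SD, n = 3) and Vtn at 843 ± 74.7. Mcam followed at 227 ± 41.1, and Ndufa4l2 at 77.2 ± 16.3. Higd1b (52.2 ± 13.9), Atp13a5 (48.6 ± 14.7), Cspg4 (48.4 ± 11.7), Abcc9 (43.3 ± 17.2) and Kcnj8 (41.3 ± 13.4 CPM per kb) lay within their spread of each other. Cox4i2 was lowest at 22.7 ± 6.44. Pdgfrb stood at 157 ± 28.2 CPM per kb in the same libraries. In KO HI libraries Vtn averaged 399 ± 271 and Rgs5 310.4 ± 152 CPM per kb (n = 4), values that overlapped, and Cox4i2 was again lowest at 9.06 ± 3.56.

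After HI, 3 of the 10 pericyte genes passed the test between KO and WT cells, Mcam, Cspg4 and Rgs5, all of them lower in KO. The other 7 had negative log2 differences that did not pass. The median log2 difference of the 10 was -1.17, against 0.06 over all genes, and 6.46% of the 14853 genes tested were called lower in this comparison (edgeR quasi-likelihood test, adjusted p under 0.05 over all genes). In 8 of the 10, every KO HI library lay below every WT HI library, as did 11.5% of all genes tested; Vtn and Cox4i2 overlapped. Pdgfrb itself differed by -1.38 ± 0.35 (SE, adjusted p = 0.0246). In bulk RNA, fewer pericytes among the cells and less RNA per pericyte cannot be told apart. Which cells in the libraries carried Mcam, Cspg4 and Rgs5 was not tested, and 10 of 14 endothelial markers were called lower too.

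**Figure D1:**
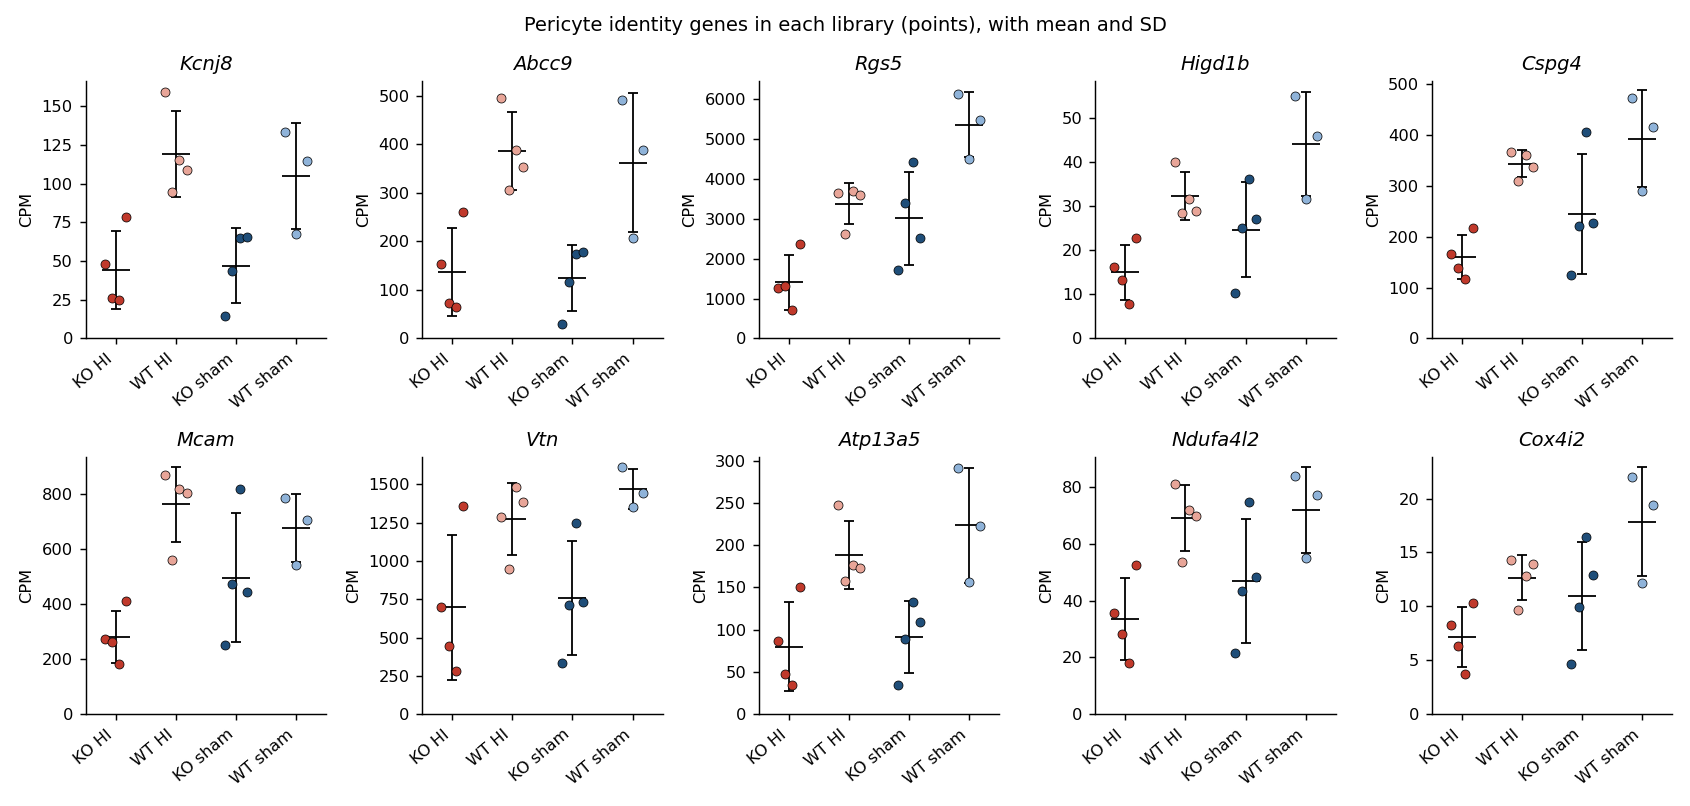
Level of each of the 10 pericyte genes in CPM (vertical axes, from 0) in every library, for KO HI, WT HI, KO sham and WT sham. Points are libraries, the long bar is the mean and the whiskers are the SD; Mcam, for example, lies between 182 and 409 CPM in KO HI libraries and between 560.5 and 869 CPM in WT HI libraries.

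The adhesion and matrix genes included the smallest adjusted p of the 10. Mcam, the CD146 receptor that also assists PDGFRβ signalling, had 272, 261, 182 and 409 CPM in KO HI libraries 1 to 4, against 869, 560.5, 817 and 802 CPM in WT HI libraries 1, 2, 4 and 5. The highest KO HI library was below the lowest WT HI library. The log2 difference was -1.44 ± 0.32 (edgeR adjusted p = 0.0152).

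Cspg4, the NG2 proteoglycan, had 165, 139, 117 and 217 CPM in KO HI libraries, against 367, 309.8, 361 and 337 CPM in WT HI libraries. Again no KO value reached a WT value, and the log2 difference was -1.11 ± 0.30 (edgeR adjusted p = 0.0300). Vtn, the integrin ligand, had 701, 446, 282 and 1357 CPM in KO HI libraries, against 1286, 945, 1483 and 1384 CPM in WT HI libraries. Library 4 of KO HI lay among the WT values and the other 3 below them. The Vtn difference, -0.87 ± 0.44, did not pass (edgeR adjusted p = 0.188).

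Of 11 known partners of NG2 and CD146, 1 was called, where 12.4% of all genes were called in either direction. It was Lama4, the laminin chain that CD146 binds in vessel walls. Lama4 averaged 274 ± 134 CPM in KO HI and 643 ± 103 CPM in WT HI libraries (SD, n = 4 each), a log2 difference of -1.23 ± 0.36 (edgeR adjusted p = 0.0418). Of 7 integrin chains listed with vitronectin, 1 was lower and 1 higher. Itga5 was lower in KO, with a log2 difference of -1.08 ± 0.26 (edgeR adjusted p = 0.0194). Itgb5, a chain of a vitronectin receptor, was higher by 0.82 ± 0.17 (edgeR adjusted p = 0.0127). All 14 microglia markers were also called higher in this comparison, and which cells carried Itgb5 was not tested. Itgav, the chain that pairs with Itgb5, showed -0.16 ± 0.14 (adjusted p = 0.451).

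Rgs5, the regulator of G-protein signals, had 1261, 1307, 712 and 2364 CPM in KO HI libraries, against 3639, 2609.9, 3689 and 3587 CPM in WT HI libraries. The ranges did not overlap, although KO HI 4 and WT HI 2 came near each other. The log2 difference was -1.26 ± 0.34 (edgeR adjusted p = 0.0313). Of 17 other genes of the RGS family, 4 were lower and 3 higher in KO after HI, where 6.46% of all genes were lower and 5.96% higher. Rgs16 was lower, with a log2 difference of -1.91 ± 0.35 (adjusted p = 0.00746), Rgs3 was at -0.93 ± 0.25 (0.0285) and Rgs4, also carried by mural cells, at -0.86 ± 0.25 (0.0424). Rgs2 was higher by 1.11 ± 0.14 (adjusted p = 0.00448) and Rgs10, which microglia carry in the mouse brain, by 1.72 ± 0.30 (0.00634).

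The channel pair showed large differences that did not pass the test. Kcnj8, the pore, had 48.4, 26.4, 24.6 and 78.6 CPM in KO HI libraries, against 159, 94.6, 115 and 109 CPM in WT HI libraries, a log2 difference of -1.42 ± 0.46 (edgeR adjusted p = 0.0580). Abcc9, the regulatory subunit, had 154, 72.1, 63.8 and 259.6 CPM in KO HI libraries, against 496, 306, 389 and 353 CPM in WT HI libraries. Its difference was -1.49 ± 0.53 (edgeR adjusted p = 0.0813). Both genes were below WT in every KO HI library, with KO HI 2 and 3 lowest and KO HI 4 highest. The subunits of the pancreatic and neuronal form of the channel, Kcnj11 and Abcc8, had low levels, at 0.112 to 2.94 and 0.339 to 1.27 CPM in KO HI libraries, against 0.0564 to 0.627 and 0.283 to 0.456 CPM in WT HI libraries. Of 13 other channel genes of mural cells 1 was called, where 12.4% of all genes were called in either direction. It was Kcnmb1, an accessory subunit of the large-conductance calcium-activated potassium channel, lower, with a log2 difference of -1.19 ± 0.32 (edgeR adjusted p = 0.0292).

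Atp13a5 had 87.1, 47.7, 34.1 and 151 CPM in KO HI libraries, against 247, 157, 176 and 173 CPM in WT HI libraries, without overlap, and its difference of -1.24 ± 0.46 did not pass (edgeR adjusted p = 0.0906). Of its 4 relatives among the P5-type ATPases, Atp13a2, a lysosomal polyamine exporter, was called, in the other direction, at 0.64 ± 0.19 (edgeR adjusted p = 0.0442). Of all genes, 5.96% were called higher. Atp13a1 (0.03 ± 0.16), Atp13a3 (-0.42 ± 0.20) and Atp13a4 (2.46 ± 1.01) did not pass.

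None of the 3 mitochondrial genes passed. Higd1b had 16.2, 13.3, 7.87 and 22.8 CPM in KO HI libraries, against 40.1, 28.4, 31.7 and 28.9 CPM in WT HI libraries (log2 difference -1.10 ± 0.36, edgeR adjusted p = 0.0607). Ndufa4l2 had 35.7, 28.1, 18.1 and 52.5 CPM, against 81.1, 53.5, 72.1 and 70.0 CPM in the same groups (-1.04 ± 0.35, edgeR adjusted p = 0.0695). Both lay below WT in every KO HI library, although the nearest libraries, KO HI 4 and WT HI 2, were close for Ndufa4l2. Cox4i2 had 8.25, 6.33, 3.69 and 10.3 CPM in KO HI libraries, against 14.3, 9.64, 12.9 and 13.9 CPM in WT HI libraries (-0.83 ± 0.37, edgeR adjusted p = 0.147). KO HI 4 exceeded WT HI 2, so the groups overlapped.

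The broadly expressed relatives of these genes had positive differences. All 15 tested nuclear subunits of cytochrome c oxidase, Cox4i1 and Ndufa4 among them, were above 0 in KO HI relative to WT HI, with a median of 0.63, and 0 were called. Cox4i1, the common isoform, showed 0.60 ± 0.31 (edgeR adjusted p = 0.197), Ndufa4 0.83 ± 0.34 (0.122) and Higd1a, the common relative of Higd1b, 0.33 ± 0.32 (0.477). Per kb, Cox4i2 amounted to 0.563% to 3.33% of Cox4i1 in KO HI libraries, against 3.14% to 4.55% in WT HI libraries. Ndufa4l2 amounted to 6.86% to 44.5% of Ndufa4 in KO HI, against 45.8% to 77.5% in WT HI libraries. Higd1b stood at 58.4% to 271% of Higd1a in KO HI, against 320% to 469% in WT HI libraries. The last 2 ratios did not overlap between the groups, while the Cox4i2 ratio of KO HI 4 lay above that of WT HI 2. The common relatives are expressed by many cell types, and in KO libraries the lowest ratios, in KO HI 3 and KO sham 1, were in the libraries with the most neuron markers; the part of those cells in the ratios was not tested.

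**Figure D2:**
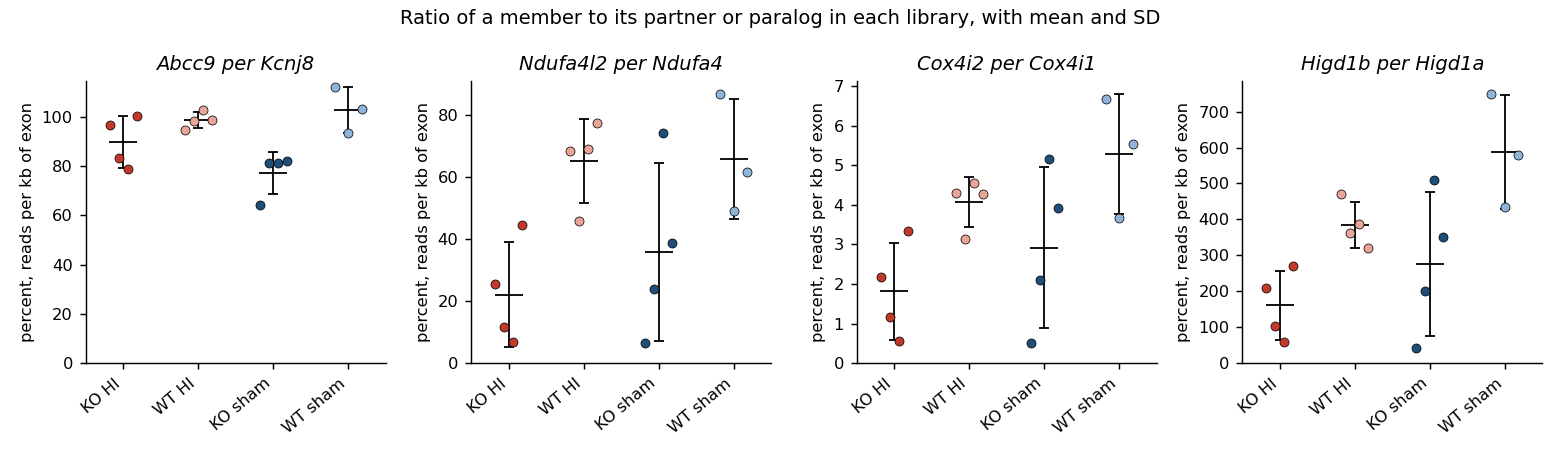
Ratio of a pericyte gene to its channel partner or common relative, in percent of reads per kb of exon (vertical axes, from 0), in every library with mean (long bar) and SD (whiskers). The ratios to Ndufa4, Cox4i1 and Higd1a spread widely among KO libraries, from 6.39% to 74.2% for Ndufa4l2 in KO sham, while Abcc9 per Kcnj8 stays between 64.4% and 112% throughout.

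Other markers moved in the same comparison. Of a list of 22 other pericyte and mural genes 9 were called lower in KO after HI and 0 higher, with a median of -1.03. Of all genes, 6.46% were called lower and 5.96% higher. The 9 included Pdgfrb and Rgs4, already given above. Also among them were Ifitm1 (-1.52 ± 0.33, edgeR adjusted p = 0.0127), the gap junction gene Gja4 (-1.34 ± 0.33, 0.0223) and the receptor P2ry14 (-1.28 ± 0.32, 0.0245). Ifitm1 lies near the Mir210 locus, and the part of the altered locus in its genotype difference was not tested. Of 13 smooth muscle markers 3 were lower, of 11 fibroblast markers 0, and of 14 endothelial markers 10, with an endothelial median of -0.999. All 14 microglia markers were higher, with a median of 1.75, and 0 of 12 neuron markers were called, with a median of 3.52. Summed smooth muscle markers ran from 817 to 1585 CPM in KO HI and 1483 to 3059 CPM in WT HI libraries, and fibroblast markers from 1347 to 5821 and 4121 to 7739 CPM in the same groups. Summed choroid plexus markers (7) ran from 1383 to 53509 CPM in KO HI, highest in KO HI 2, and from 127 to 8519 CPM in WT HI libraries. Oligodendrocyte markers (8) ran from 76.4 to 1839 CPM in KO HI and 47.5 to 96.4 CPM in WT HI libraries, and astrocyte markers (9) from 762 to 6188 and 864 to 1193 CPM in the same groups, both highest in KO HI 3. In sham mice the oligodendrocyte and astrocyte sums were highest in KO sham 1 (8957 and 14421 CPM), and the choroid plexus sum in KO sham 3 (26937 CPM). The part of these other cells in the pericyte differences was not tested.

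**Figure D3:**
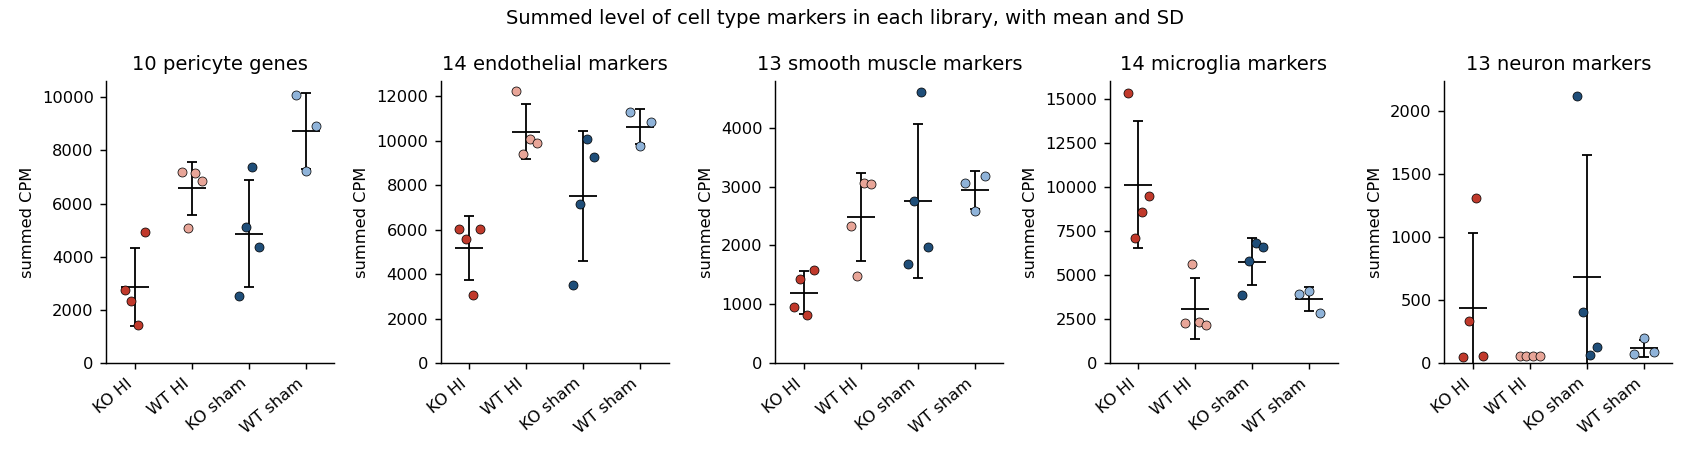
Summed CPM (vertical axes, from 0) of the 10 pericyte genes and of endothelial, smooth muscle, microglia and neuron markers in every library, with mean (long bar) and SD (whiskers). The pericyte sum lies between 1445 and 4923 CPM in KO HI and between 5075 and 7198 CPM in WT HI libraries, and the microglia sum is higher in every KO HI library than in any WT HI library.

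The count of 3 moved with the fit, and so did the share of all genes called lower, 6.46% as reported. With the replicate number as a block the count was 0 (0.121% of all genes were called lower). It was 0 without WT HI 1 (1.58%), and 1 (Mcam) without any one of KO HI 1, KO HI 2, KO HI 3, WT HI 4 and WT HI 5 (1.86% to 5.21%). It was 9, all but Cox4i2, without KO HI 4 (11.9%), then 8 without KO sham 1 (12.5%) and 5 without KO sham 4 (7.60%). DESeq2 called 8 (11.5%), limma-voom 5 (8.22%) and a fit of these groups alone 5 (6.83%). Another fit left out the 5 libraries highest in neuron markers, a choice made with the data seen. These were KO HI 2, KO HI 3, KO sham 1, KO sham 3 and WT sham 2, so KO HI kept only libraries 1 and 4. In that fit 5 were called (Abcc9, Cspg4, Higd1b, Kcnj8 and Mcam), where 10.9% of all genes were called lower. Rgs5 was at -0.92 ± 0.31 there (edgeR adjusted p = 0.0639). All 10 differences stayed negative in each of these fits.

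Pdgfrb, the gene of the receptor by which the cells were isolated, served as a second scale. With each library scaled to level Pdgfrb, the 10 log2 differences between KO HI and WT HI ran from -0.19 ± 0.29 (Abcc9) to 0.59 ± 0.22 (Cox4i2), with a median of 0.21. Under this scaling the median of all genes moved to 1.64, and 89.3% of genes were called higher in KO. Among the 10, 1 was called, Cox4i2, higher in KO (edgeR adjusted p = 0.0238). Cox4i2 had 2.27, 2.33, 1.91 and 1.72 reads per 100 Pdgfrb reads in KO HI libraries, against 1.36, 1.28, 1.34 and 1.48 in WT HI libraries, without overlap. Ndufa4l2 (8.81 to 10.3 in KO HI and 7.12 to 7.73 in WT HI libraries) and, barely, Higd1b did not overlap either, and on this scale 72.9% of all genes had every KO HI library above every WT HI library. Mcam differed by 0.02 ± 0.18, Atp13a5 by 0.06 ± 0.21 and Rgs5 by 0.12 ± 0.18 on this scale (edgeR adjusted p = 0.898, 0.806 and 0.519). The Cox4i2 call was lost without KO HI 1, KO HI 2, WT HI 2 or WT HI 4, with the replicate block, and when libraries were scaled to the other pericyte and mural genes. Without KO sham 1 or KO HI 3, 2 genes were called, where 90.9% and 74.4% of all genes were called higher. Without KO HI 4, 3 were called (Cox4i2, Cspg4 and Ndufa4l2), where 92.2% of all genes were called higher. Without the 5 libraries highest in neuron markers the 1 call was Vtn, higher in KO, as were 67.4% of all genes.

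**Figure D4:**
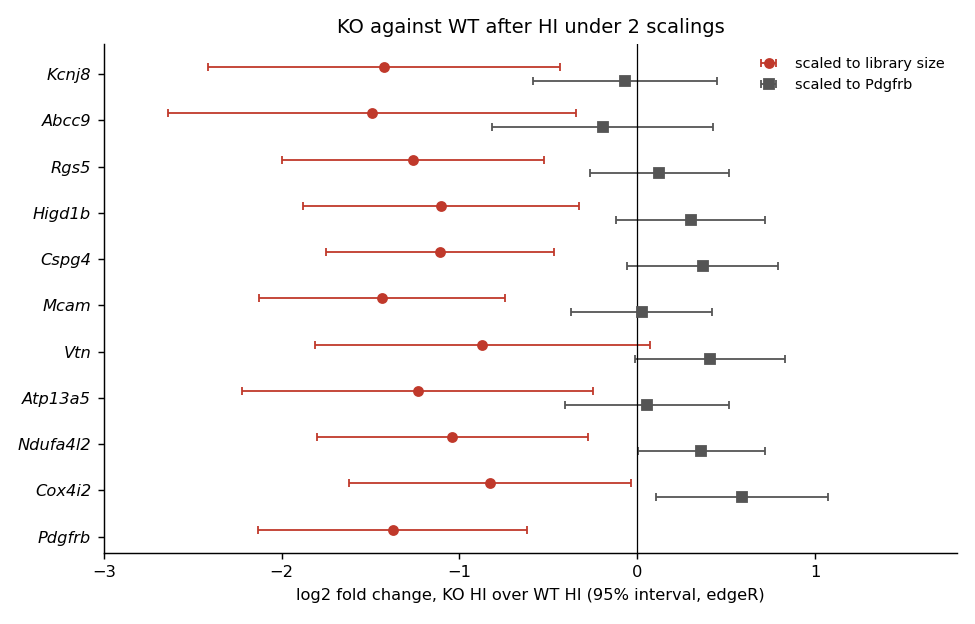
Log2 difference of each gene, KO HI over WT HI (horizontal axis), with its 95% interval from edgeR, scaled to library size (red circles) and to Pdgfrb (grey squares). By library size all 10 lie below 0, from -1.49 to -0.83; scaled to Pdgfrb they lie between -0.19 and 0.59, and Pdgfrb itself is drawn for library size alone.

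In sham mice, 0 of the 10 genes passed the test between KO and WT (0.0135% of all genes were called, edgeR). All 10 differences were negative, from -1.54 ± 0.56 for Abcc9 to -0.45 ± 0.34 for Mcam, with a median of -0.84 against 0.05 over all genes. Unadjusted p was under 0.05 for 6 genes, with no share of all genes counted at that threshold. Adjusted p (edgeR) ran from 0.477 to 0.525. DESeq2 and limma-voom called 0 of the 10 as well. Every KO sham library lay below every WT sham library for 5 genes, Kcnj8, Abcc9, Rgs5, Vtn and Atp13a5, as it did for 5.49% of all genes. Pdgfrb differed by -0.74 ± 0.37 (edgeR adjusted p = 0.477).

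The widest difference in sham mice was that of Abcc9. It had 30.5, 117, 173 and 177 CPM in KO sham libraries 1, 3, 4 and 6, against 492, 207 and 389 CPM in WT sham libraries 1 to 3. Kcnj8 had 14.4, 43.8, 64.8 and 65.5 CPM in KO sham, against 133, 67.2 and 115 CPM in WT sham libraries (-1.16 ± 0.48, edgeR adjusted p = 0.477). KO sham 1, the library with the highest neuron markers, was lowest for both, and WT sham 2 was lowest among WT. Atp13a5 came between the channel genes in size of difference (-1.29 ± 0.48, edgeR adjusted p = 0.477), at 34.1 to 133 CPM in KO sham and 156 to 292 CPM in WT sham libraries. Vtn stood at 335 to 1249 and 1355 to 1611 CPM in the same groups.

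Abcc9 was also low in KO sham libraries per unit of Pdgfrb. It had 12.2, 23.6, 22.0 and 33.2 reads per 100 Pdgfrb reads in KO sham libraries, against 49.8, 30.1 and 42.9 in WT sham libraries, and KO sham 6 overlapped WT sham 2. Vtn, by a narrow margin, and Atp13a5 had every KO sham library below every WT sham library on this scale, as did 0.283% of all genes, and Mcam every one above, as did 20.5%. The Abcc9 difference on that scale was -0.85 ± 0.31 and Atp13a5 showed -0.57 ± 0.23 (edgeR adjusted p = 0.0808 for both), while the other 8 lay between -0.45 and 0.28. On this scale 0 of the 10 were called, as were 0.0135% of all genes. For 2 the unadjusted p was under 0.05, with no share of all genes counted at that threshold. Without KO sham 4, Abcc9 was called lower, in a fit that called 72.6% of all genes in either direction and 0.101% lower. The median of all genes on this scale was 0.98 and that of the 10 was -0.09. Per kb, Abcc9 amounted to 64.4% to 82.3% of Kcnj8 in KO sham libraries, against 93.6% to 112% in WT sham libraries, without overlap. After HI the same ratio was 78.9% to 101% in KO and 94.8% to 103% in WT libraries, with overlap. No test was made of these ratios.

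HI was compared with sham in WT mice as well. Of the 10, 0 passed the test (1.82% of all genes were called, edgeR), 0 had an unadjusted p under 0.05, and DESeq2 and limma-voom called 0. Differences from sham lay between -0.67 ± 0.36 for Rgs5 and 0.18 ± 0.49 for Kcnj8, with a median of -0.20 against -0.01 over all genes. Rgs5 had 3639, 2609.9, 3689 and 3587 CPM in WT HI libraries, against 6122, 4495 and 5482 CPM in WT sham libraries. It was the only one of the 10 with every WT HI library below every WT sham library, an order seen in 15.8% of all genes. Its adjusted p was 0.496 in edgeR, and 0.0338 when only the WT libraries were fitted, where 17.1% of all genes were called.

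Per unit of Pdgfrb the Rgs5 values were tighter. Rgs5 had 347, 347, 384 and 382 reads per 100 Pdgfrb reads in WT HI libraries, against 620, 653 and 605 in WT sham libraries. The difference was -0.78 ± 0.20 (edgeR adjusted p = 0.139). Higd1b had 3.08 to 3.82 in WT HI and 4.60 to 5.59 in WT sham libraries (-0.54 ± 0.21, adjusted p = 0.596), and Cox4i2 1.28 to 1.48 and 1.77 to 2.23 in the same groups (-0.58 ± 0.24, adjusted p = 0.693). All 3 had an unadjusted p under 0.05, a threshold at which no share of all genes was counted. Neither they nor Cspg4, Vtn and Ndufa4l2 overlapped between the groups, so that 6 of the 10 had every WT HI library below every WT sham library on this scale, as did 9.18% of all genes. On this scale 0 of the 10 were called, and 0.39% of all genes were. The other 7 lay between -0.33 and 0.10.

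**Figure D5:**
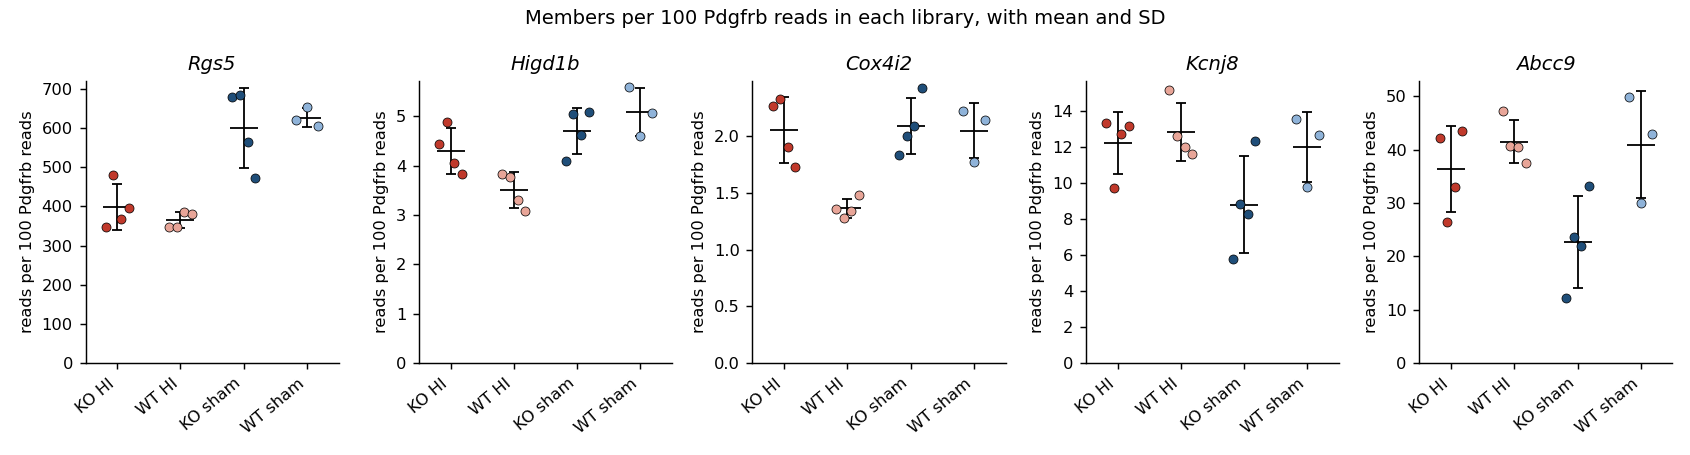
Reads of Rgs5, Higd1b, Cox4i2, Kcnj8 and Abcc9 per 100 reads of Pdgfrb (vertical axes, from 0) in every library of KO HI, WT HI, KO sham and WT sham, with mean (long bar) and SD (whiskers). Rgs5 lies between 347 and 480 in both HI groups and between 473 and 685 in both sham groups.

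In KO mice, too, 0 of the 10 genes passed between HI and sham by edgeR (7.01% of all genes were called), and 0 had every HI library below every sham library (2.78% of all genes). Rgs5 and Mcam had an unadjusted p under 0.05, a threshold at which no share of all genes was counted. Rgs5 had 1261, 1307, 712 and 2364 CPM in KO HI libraries, against 1704, 3396, 4420.3 and 2521 CPM in KO sham libraries, a difference of -1.09 ± 0.34 (edgeR adjusted p = 0.0723). DESeq2 called Rgs5 (13% of all genes were called in that fit), and so did edgeR without KO HI 4 (6.06%). Without KO sham 1, 4 genes were called (Cspg4, Higd1b, Mcam and Rgs5), where 13% of all genes were called. Mcam had 272, 261, 182 and 409 CPM in KO HI, against 252, 473, 818 and 443 CPM in KO sham libraries (-0.82 ± 0.32, edgeR adjusted p = 0.144). Kcnj8 (-0.08 ± 0.45), Vtn (-0.12 ± 0.43) and Abcc9 (0.14 ± 0.52) were near 0 with wide errors. The median of the 10 was -0.55, against -0.06 over all genes.

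Per unit of Pdgfrb, KO HI libraries held 347, 480.4, 368 and 396 Rgs5 reads per 100 Pdgfrb reads, against 679, 685, 563 and 473 in KO sham libraries, with KO HI 2 just above KO sham 6. The difference was -0.59 ± 0.18 (edgeR adjusted p = 0.0820), and Abcc9 differed by 0.67 ± 0.29 (0.210). On this scale 0 of the 10 were called, against 4.61% of all genes, whose median stood at 0.46. Rgs5 was called when libraries were scaled to the other pericyte and mural genes (4.40% of all genes were called in that fit), without KO sham 1 (47.5%) and without KO HI 4 (18.5%).

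The response to HI was also compared between genotypes directly. The difference of responses, KO minus WT, passed for 0 of the 10 genes and for 0% of all genes, and 0 of the 10 had an unadjusted p under 0.05. DESeq2 and limma-voom likewise called 0 of the 10, and DESeq2 called 22 of all genes. The nearest was Mcam at -0.99 ± 0.47 (edgeR adjusted p = 0.932), and Rgs5 showed -0.43 ± 0.50. Thus the KO and WT difference in Mcam, Cspg4 and Rgs5 after HI was not shown to differ from that in sham mice.

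Several regulators and partners passed the test. Hif1a, the oxygen-regulated transcription factor, was higher after HI by 0.41 ± 0.08 in KO (edgeR adjusted p = 0.0100) and by 0.41 ± 0.08 in WT mice (0.0269). Epas1, its relative that is abundant in brain pericytes and endothelium, was lower in KO than in WT after HI, at 909 ± 228 CPM in KO HI and 1876 ± 185 CPM in WT HI libraries (-1.04 ± 0.23, adjusted p = 0.0135). Of 16 transcription factors on that list 5 were lower and 1 higher in KO after HI, where 6.46% of all genes were lower and 5.96% higher. The Notch target Hey1 was at -0.96 ± 0.19 (edgeR adjusted p = 0.0101), Tbx2 at -1.13 ± 0.30 (0.0295) and Mef2c, which microglia also carry, at 0.76 ± 0.15 (0.0106). Ifitm1 rose after HI by 1.41 ± 0.33 in KO (adjusted p = 0.0236) and by 2.38 ± 0.37 in WT mice (0.00654). Lgals3, a galectin that binds NG2 and that activated microglia also express, rose by 3.57 ± 0.38 in KO (0.000408) and 3.38 ± 0.42 in WT mice (0.00222). The smooth muscle genes Acta2 (-1.35 ± 0.34, 0.0323) and Myocd (-1.46 ± 0.41, 0.0471) fell after HI in KO mice.

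The 10 genes varied together from library to library. Over the 15 libraries, the 45 pairwise Pearson correlations of log2 CPM ran from 0.719 to 0.996 with a median of 0.918, and from 0.798 to 0.997 with a median of 0.935 after group means were subtracted. Against the mean of the other 9, Ndufa4l2 was closest at 0.993 and Rgs5 farthest at 0.892. Of 10657 genes searched, those most like the mean of the 10 included Lama4 (0.991), Lamc1 (0.990), Lats2 (0.989), Flt1 (0.988), Pdgfrb (0.987), S1pr3 (0.986), Lamb1 (0.986), Esyt2 (0.984) and Unc5b (0.984). With group means subtracted, Pdgfrb came first at 0.994, followed by Gper1, Gjc1, Cd248, Lats2, Col4a2, Lamc1, Ednra, Art3 and Lama4 between 0.989 and 0.980. These values describe the libraries, which share depth and the balance of cell types within each. In KO HI libraries the coefficient of variation of the 10 ran from 27.1% (Cspg4) to 67.9% (Vtn), against 7.63% (Cspg4) to 23.3% (Kcnj8) in WT HI libraries.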

How the data were processed

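For 15 libraries the authors deposited expected counts per gene, not normalized. This unit rests on RSEM being named and on the 3.12% to 3.92% of each library's values that are not whole. HISAT2 2.1.0, RSEM 1.3.1, Bowtie, Bowtie2 2.4.4, DESeq2 1.4.5 and build mm39 are named per the submitters' processing notes, and their roles are not given in the sources used here. Of 65535 lines, 17892 held values and 17862 of those matched a gene symbol. Whether the table was shortened at its last line is not known, so shares of all genes cover only the genes with values.

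Expected counts were rounded, filtered with filterByExpr (14853 genes left) and tested with edgeR 4.0.16 in R 4.3.3 (TMM, glmQLFit and glmQLFTest, 4 group means in one fit). Calls were made at an adjusted p (Benjamini-Hochberg, over all genes) under 0.05. The biological coefficient of variation was 38.6%. A second scaling held Pdgfrb level in all libraries. The test was also run on simulated data in which each gene varied independently. That check does not cover shifts shared by many genes of a library. Errors are SE for log2 differences and SD for levels. Likeness used log2 CPM with a prior count of 0.5.

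Alternatives were DESeq2 size factors, no filter, DESeq2 1.42.0, limma-voom (limma 3.58.1), the compared groups alone, a replicate block, each library left out, and scaling to other mural genes. Leaving out the 5 libraries highest in neuron markers was chosen after seeing the data. All 10 members were named in every comparison, with set relatives, and up to 4 genes per list by smallest p. The members and lists were chosen with earlier results of these data known. Results of some genes of these lists are not reported here.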

Additional observations from a re-analysis of the deposited data

Results flagged for a closer look

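The Rgs5 level of WT HI library 2, at 2609.9 CPM, stood apart from the other 3 WT HI libraries, which lay between 3587 and 3689 CPM. It was the 1 value singled out among 30 groups of 4 libraries checked for a sample far from the others, where chance singles out about 1 in 20. Per 100 Pdgfrb reads the same library held 347 Rgs5 reads, the value of WT HI 1 as well. WT HI 2 was the lowest WT HI library for all 10 pericyte genes and for Pdgfrb, at 751 against 940 to 1049 CPM. Its summed microglia markers were the highest of the group, at 5651 against 2151 to 2313 CPM.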

How the results depend on the processing

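Among combinations of a gene and an alternative setting, 997 kept the direction and the side of the threshold of the reported log2 difference, 32 gained and 17 lost the call, and 44 changed sign, none of these 44 in KO against WT after HI or in sham. In KO against WT after HI, Mcam was called in 20 of 22 alternatives (edgeR, DESeq2 or limma-voom adjusted p = 0.000115 to 0.0801), Cspg4 in 15, Rgs5 in 14 and Cox4i2 in 0. The count of called genes there was 3 as reported, 8 with DESeq2, 5 with limma-voom, 5 with the compared groups alone, 5 without the 5 libraries highest in neuron markers and 0 with the replicate block, and 0 to 9 with each library left out. For HI against sham in WT it was 0 as reported, 1 with the compared groups alone (17.1% of all genes were called) and 0 to 0 with each library left out. In KO it was 0 as reported, 1 with DESeq2 (13%) and 0 to 4 with each library left out (2.39% to 13%). Scaled to Pdgfrb, KO against WT after HI had 1 call, where 89.3% of all genes were called higher. It had 0 when scaled to the other pericyte and mural genes (79.3%), 0 with the replicate block (63%) and 0 to 3 with each library left out (74.4% to 92.2%). HI against sham in KO had 1 call when scaled to the other pericyte and mural genes (4.40% of all genes were called). Scaled to Pdgfrb, it had 0 to 1 with each library left out (0.946% to 47.5%). KO against WT in sham had 0 when scaled to the other pericyte and mural genes (0.0135%). Scaled to Pdgfrb, that comparison had 0 to 1 with each library left out (0.0133% to 72.6%).

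Sign changes were of differences that did not pass. In HI against sham in WT, Kcnj8 was -0.053 and Abcc9 -0.19 without the 5 libraries, and Abcc9 -0.019 and Mcam -0.091 with the replicate block. In HI against sham in KO, Kcnj8 was 0.28 with the block and Vtn 0.040 without the 5 libraries. In the difference of responses, Kcnj8 was 0.20, Higd1b 0.011 and Cox4i2 0.36 with the block, Kcnj8 0.0013 and Cox4i2 0.027 without the 5 libraries, and Atp13a5 -0.035 with limma-voom. With each library left out, Kcnj8, Abcc9 and Ndufa4l2 in HI against sham in WT ranged from -0.055 to 0.39, -0.19 to 0.37 and -0.22 to 0.064. In KO, Kcnj8, Abcc9, Vtn and Atp13a5 ranged from -0.53 to 0.12, -0.39 to 0.38, -0.69 to 0.23 and -0.72 to 0.058. In the difference of responses, Abcc9, Vtn, Atp13a5 and Cox4i2 ranged from -0.47 to 0.33, -0.47 to 0.43, -0.46 to 0.31 and -0.39 to 0.13. The cause of these changes was not tested.

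Replicate numbers recur across groups. Same-numbered libraries correlated from -0.765 to 0.772 over 15 pairs, 10 of them over 0.1. The 3 pairs of KO HI and WT HI were at 0.0393, 0.293 and 0.369. The rule used, every pair over 0.1, was not met, and the number was not a block in the reported fit. With 3 or 4 libraries in a group, this check cannot show that same-numbered libraries were unpaired. With the number as a replicate block 21 genes in all were called in KO against WT after HI, where 1844 were without it. Depth was even across libraries and left the lowest gene, Cox4i2, with 61 counts or more.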
